A study of Mus musculus with 12 samples.

Results

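Regions that carried a trimethylated histone H3 lysine 4 (H3K4me3) peak only in the list of C2C12 cells treated with the LSD1 inhibitor S2101 numbered 1072 of 51372 merged regions (2.09%). They were found by pooling the peaks of 6 deposited lists, merging all peaks that overlapped by at least 1 bp, and keeping the regions that overlapped an S2101 H3K4me3 peak and no vehicle H3K4me3 peak. They made up 7.69% of the 13934 regions with H3K4me3 in either treatment, beside 12715 regions with H3K4me3 in both treatments, called shared regions here, and 147 with H3K4me3 in vehicle only (0.286% of merged regions and 1.05% of those with H3K4me3). The regions were chosen by the presence of peaks in the 2 H3K4me3 lists, so what is said of H3K4me3 in them is a description.

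C2C12 is a mouse myoblast line that withdraws from the cell cycle and fuses into myotubes when serum is lowered. The first group was placed in differentiation medium with horse serum and 10 µM S2101, and the control group in the same medium with vehicle. Both were crosslinked after 48 h, on day 2. Chromatin immunoprecipitation and sequencing gave 1 library per mark and treatment, with H3K4me2 and H3K4me1 from experiment 1 and H3K4me3 from experiment 2, so mark and experiment cannot be told apart. All 6 lists come from this 1 cell line. No comparison between treatments has a replicate check or a p-value. The series has 12 samples; 4 inputs and 2 samples of H3 itself were not used here. All positions are mm9 and 1-based. Only GRCm38 gene and sequence tables were at hand, so regions are named by position alone and the labelled cell type was not checked against marker genes.

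H3K4 is methylated stepwise by the COMPASS family of methyltransferases, and dimethylated H3K4 (H3K4me2) is the form from which the trimethylated form is made. LSD1 (Kdm1a) is a flavin-dependent demethylase that takes methyl groups from H3K4me2 and from monomethylated H3K4 (H3K4me1) but cannot act on H3K4me3. H3K4me3 marks active and poised promoters, H3K4me1 marks enhancers and promoter flanks, and H3K4me2 occurs at both. The lists of H3K4me2 and H3K4me1 entered the choice of regions through the merging only: a region needed no peak of these marks, but such a peak could join an S2101 H3K4me3 peak to a vehicle one and so remove it.

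The S2101 H3K4me3 list held 14324 peaks that cover 26.8 Mb, and the vehicle list 13589 peaks that cover 24.4 Mb. In the S2101 list 1207 peaks overlapped no vehicle peak. Of these, 1080 lay in the 1072 regions, 1064 regions holding 1 such peak and 8 holding 2. The other 127 sat in regions that peaks of the other marks joined to a vehicle H3K4me3 peak, and they are not members. Each of these 127 thus lay with a peak of another mark. Over all 1207 peaks, H3K4me2 overlapped the H3K4me3 peak in 57.4% with S2101 and 76.5% with vehicle, and H3K4me1 in 15.0% and 37.8%, against 57.2% and 73.9%, and 14.3% and 36.3%, of the 1080. The lists hold only peaks of score 100 or more, so a region without a peak is one below the caller's limit and not one without the mark.

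The S2101-only regions were weak and narrow. The highest peak score in a region was 153 at the median in the S2101-only regions (quartiles 123 and 214, range 100.11 to 1064.77), against 3100 in the shared regions in the same list. The score is the authors' own value for a peak, ranks peaks within a list only, and piles up at 3100 in the strong peaks. The H3K4me3 peaks in S2101-only regions were 626 bp wide at the median (quartiles 515 and 743), and the S2101 peaks that overlapped a vehicle peak were 1831 bp wide (quartiles 1327 and 2437). Scores below 150 were found in 519 of the 1072 regions (48.4%) and scores of 200 or more in 312 (29.1%). The vehicle-only regions were also weak, with a median score of 123 (highest 264.65) and a median covered length of 548 bp in the vehicle list.

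The share of regions found in 1 list only depended on the score in both directions, but it was higher on the S2101 side in every score class under 600. Of the regions with an S2101 H3K4me3 score between 100 and 150, 519 of 661 (78.5%, 95% Wilson interval 75.2 to 81.5%) had no vehicle peak. Of the regions with a vehicle score in the same range, 108 of 508 (21.3%, 17.9 to 25.03%) had no S2101 peak. Scores of the 2 lists need not be on a common scale. Between 200 and 300, the shares were 37.2% of 570 S2101 regions and 2.09% of 478 vehicle regions. Between 300 and 600, they were 11.1% of 894 S2101 regions, against 0 of 762 vehicle regions, which allows a share of up to 0.394%. At 600 and over, 1 of 11256 S2101 regions had no vehicle peak and 0 of 10748 vehicle regions had no S2101 peak. Wilson intervals cover counting error only, and neighbouring peaks are not independent.

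**Figure D1:**
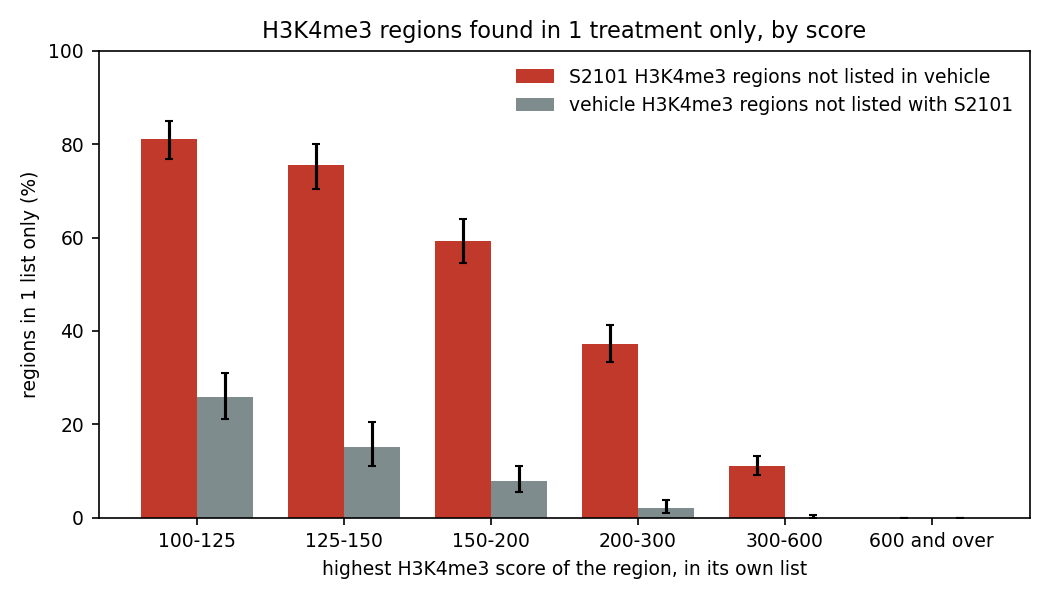
Percent of H3K4me3 regions found in 1 list only (y axis) by the highest H3K4me3 score of the region in its own list (x axis), for S2101 regions absent from the vehicle list (red) and vehicle regions absent from the S2101 list (grey). Bars are shares and error bars 95% Wilson intervals. The S2101 share lies above the vehicle share in each class under 600, at 81.2% against 25.8% in the lowest class and 11.1% against 0 in the class of 300 to 600. Both are near 0 at 600 and over.

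H3K4me3 scores in shared regions under the pile-up at 3100 were also mostly higher in the S2101 list than in the vehicle list. In the 3914 shared regions with 1 peak in each list and both scores under 3100, the S2101 score was 1.38 times the vehicle score at the median (quartiles 1.15 and 1.72). The S2101 score was the higher one in 87.4%. Among 9942 shared regions with 1 peak in each list and a vehicle score of 600 or more, both medians were at the pile-up of 3100. There the S2101 score was the higher one in 27.1%. Where the vehicle score was just above the limit, between 100 and 150, the S2101 score was 212 at the median (quartiles 158 and 305, 387 regions). The S2101-only regions had a lower median S2101 score, 153. They were chosen by the lack of a vehicle peak and the list holds no score under 100, so their place below this class was not tested. The selection of pairs acts on such classes from both sides: among the 137 shared regions with an S2101 score between 100 and 150, the S2101 score was the higher one in 35.8%, and the vehicle score was 142 at the median. The part of this score difference in the count of S2101-only regions was not tested. With the S2101 list shortened to its 13589 highest-scoring peaks, which leaves scores of 145.46 and above, 593 regions were S2101-only and 272 vehicle-only. At scores of 200 or more in both lists, where a vehicle peak under 200 counts as absent, the counts were 787 and 54, and at 200 or more in the S2101 list against the full vehicle list 312 regions were S2101-only.

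**Figure D2:**
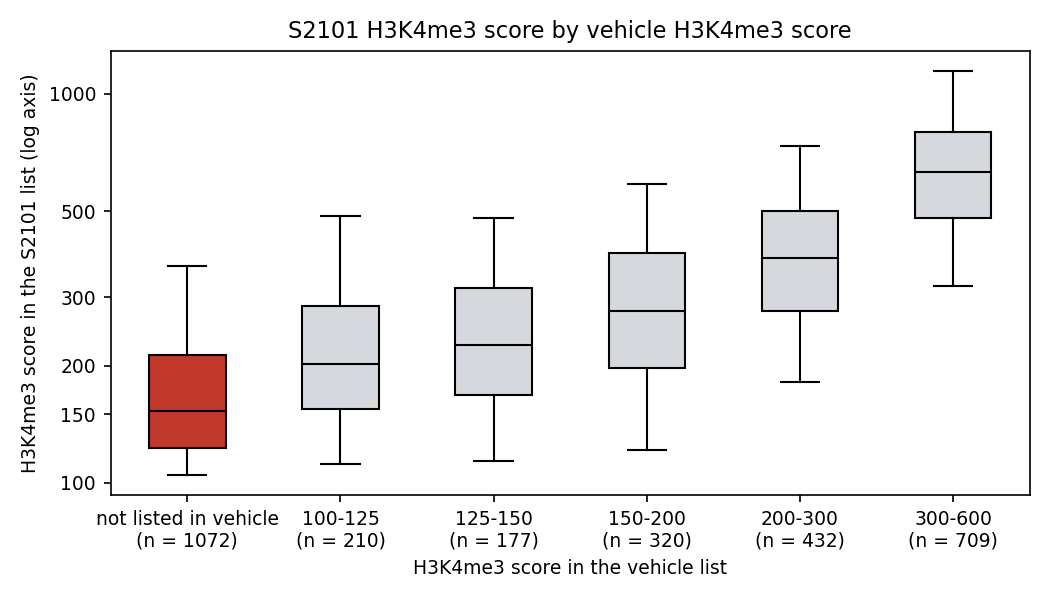
H3K4me3 score in the S2101 list (y axis, log scale) for the 1072 S2101-only regions (red) and for shared regions with 1 peak in each list, by their vehicle score (grey; x axis). Boxes show quartiles and medians and whiskers the 5th and 95th percentiles; the red median of 153 lies below the medians of the shared classes, the lowest of which is 203.

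Most S2101-only H3K4me3 regions also held H3K4me2, and did so in vehicle cells as well. H3K4me2 peaks were present with S2101 in 627 regions (58.5%, 55.5 to 61.4%) and with vehicle in 791 (73.8%). In shared regions the H3K4me2 shares were 91.6% with S2101 and 97.1% with vehicle, and in vehicle-only regions 46.9% and 70.7%. H3K4me1 was present in 244 S2101-only regions with S2101 (22.8%, 20.4 to 25.4%) and in 448 with vehicle (41.8%). The H3K4me1 shares in shared regions were 14.4% with S2101 and 38.9% with vehicle. Fewer of these regions thus held H3K4me2 or H3K4me1 in the S2101 lists than in the vehicle lists.

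**Figure D3:**
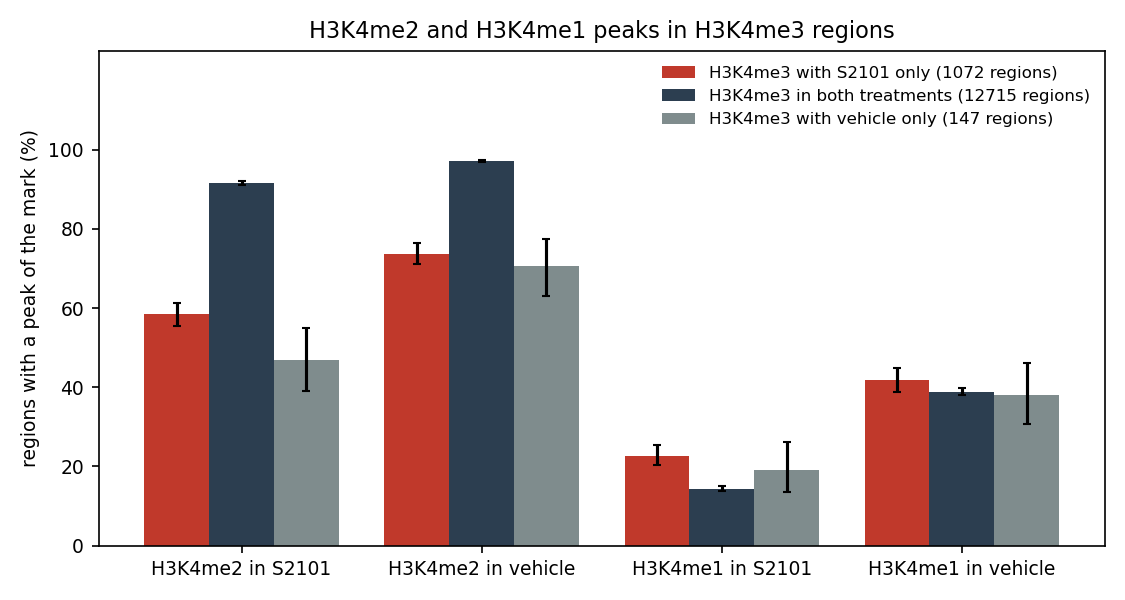
Percent of regions with a peak of H3K4me2 or H3K4me1 in each treatment (y axis), for H3K4me3 regions listed with S2101 only (red), in both treatments (dark blue) and with vehicle only (grey). Error bars are 95% Wilson intervals; the S2101-only regions hold H3K4me2 in 58.5% with S2101 and 73.8% with vehicle, below the shared regions at 91.6% and 97.1%.

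The gap to the shared regions in H3K4me2 was smaller among regions of like H3K4me3 score. When the shared regions were weighted to the S2101 score classes of the S2101-only regions, H3K4me2 with S2101 was found in 58.5% of S2101-only and 58.4% of weighted shared regions, a difference of 0.0642 percentage points (counting SE 2.73). For vehicle H3K4me2 the shares were 73.8% and 77.4%, a difference of −3.65 points (SE 2.41). For H3K4me1 they were 22.8% and 18.6% with S2101 (difference 4.19, SE 2.20) and 41.8% and 36.5% with vehicle (difference 5.32, SE 2.64). The difference was at most 2.02 times its counting SE in these 4 comparisons, and no test of it can be made with 1 library per group. The shared regions include those that hold the 127 S2101 H3K4me3 peaks joined to a vehicle one by peaks of other marks. Such regions hold another mark by construction, and shared regions were few at low scores, with 142 between 100 and 150. The part of this merging in these shares, and in those weighted by score below, was not tested. Median region widths over the 5 score classes under 600 ran from 885 to 1296 bp in S2101-only regions and from 878.5 to 1225 bp in shared regions.

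By state, H3K4me2 was listed in both treatments in 564 of the 1072 regions (52.6%), with S2101 only in 63 (5.88%), with vehicle only in 227 (21.2%) and in neither in 218 (20.3%). Over all merged regions H3K4me2 was listed with S2101 only in 1.37% and with vehicle only in 8.98%, and over regions with H3K4me3 in either treatment in 0.818% and 7.26%. The 63 regions are part of 114 H3K4me3 regions with H3K4me2 in S2101 only. The 227 regions are those where H3K4me3 was listed with S2101 only while H3K4me2 was listed with vehicle only. In shared regions, weighted to the same scores, H3K4me2 was S2101-only in 2.69%, a difference of 3.18 points (SE 1.07), and vehicle-only in 21.7%, a difference of −0.528 points (SE 2.30). Median H3K4me3 scores differed little between the states: 159 with H3K4me2 in both, 147 with H3K4me2 in S2101 only, 145 with H3K4me2 in vehicle only and 148 with none.

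H3K4me1 was listed in both treatments in 217 S2101-only regions (20.2%), with S2101 only in 27 (2.52%), with vehicle only in 231 (21.5%) and in neither in 597 (55.7%). Over all merged regions it was listed with S2101 only in 10.3% and with vehicle only in 47.0%, and over regions with H3K4me3 in either treatment in 2.53% and 26.6%. The 27 regions are therefore at the background of H3K4me3 regions. In shared regions weighted by score, H3K4me1 was found with S2101 only in 1.59%, with vehicle only in 19.5% and in both in 17.0%. The differences from the S2101-only regions were 0.928 points (SE 0.722), 2.05 points (SE 2.14) and 3.27 points (SE 2.12). The 231 regions thus lie below the share over all H3K4me3 regions but not below that of shared regions of like score.

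By both marks together, 456 of the 1072 regions (42.5%) held H3K4me1 and H3K4me2 in some treatment, against 41.4% of shared regions and 37.5% once these were weighted by score. A further 398 (37.1%) held H3K4me2 without H3K4me1, against 56.1% of shared and 42.6% of weighted shared regions. No peak of either mark was found in 199 (18.6%), and 19 (1.77%) held H3K4me1 without H3K4me2, against 0.572% of weighted shared regions. The share without either mark was 2.41% in shared regions but 19.3% in shared regions weighted by score. The median H3K4me3 score was 152 with both marks, 155 with H3K4me2 alone and 148 with neither. The H3K4me3 peaks were 665 bp wide at the median in the first class, 608 bp in the second and 564 bp in the third.

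The H3K4me2 peaks at these regions were shorter with S2101 than with vehicle, as they were over the whole lists. The H3K4me2 lists had median widths of 552 bp with S2101 (24444 peaks, 15.9 Mb) and 1342 bp with vehicle (21447 peaks, 34.1 Mb). The H3K4me1 lists held 20664 peaks over 9.34 Mb with S2101 and 40432 peaks over 26.9 Mb with vehicle. Within the S2101-only regions, H3K4me2 peaks covered 366 kb with S2101 and 909 kb with vehicle, a ratio of 0.403 (0.396 ± 0.0772, mean and SD over 19 autosomes, which are not replicates). The ratio in the shared regions was 0.521 (0.524 ± 0.0442), and it depended on the H3K4me3 score in both sets, with 0.361 in S2101-only and 0.355 in shared regions at scores of 100 to 150 and 0.546 and 0.457 at scores of 300 to 600. Of the 564 regions with H3K4me2 in both treatments, the S2101 length was greater in 8 (1.42%). Within the H3K4me3 peaks themselves, leaving out the flanks, the ratio was 0.568. H3K4me1 covered 174 kb with S2101 and 461 kb with vehicle, a ratio of 0.378 (0.341 ± 0.0763 over autosomes), against 0.246 (0.228 ± 0.0433) in shared regions. By H3K4me3 score this H3K4me1 ratio was 0.364 in S2101-only and 0.392 in shared regions at 100 to 150, 0.427 and 0.260 at 150 to 200, 0.334 and 0.307 at 200 to 300, and 0.425 and 0.292 at 300 to 600. Where H3K4me1 was listed in both treatments, the median ratio per region was 0.512 in 217 S2101-only and 0.487 in 1504 shared regions. The H3K4me2 peaks found in S2101-only regions were also weaker than their lists as a whole, with a median score of 191 in the S2101 list (265 over the list) and 276 in the vehicle list (486 over the list). The H3K4me1 peaks in these regions had higher scores than their lists, at 162 in the S2101 list (142 over the list) and 215 in the vehicle list (182 over the list).

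Over the set of H3K4me3 peaks, H3K4me2 cover was highest at the midpoint, though not every peak overlapped H3K4me2 (618 of 1080 with S2101, 798 with vehicle). The midpoint of the 1080 S2101-only H3K4me3 peaks was covered by H3K4me2 in 50.8% with S2101 and 72.3% with vehicle. In the 1697 shared peaks with an S2101 score under 600, these shares were 60.2% and 84.1%. The values that follow are again for the S2101-only peaks. At 500 bp to the left the H3K4me2 cover was 8.98% with S2101 and 38.98% with vehicle, and at 1 kb to the left it was 3.33% and 11.0%. In full, 45 of the 1080 H3K4me3 peaks lay inside S2101 H3K4me2 peaks, against 596 inside vehicle H3K4me2 peaks.

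H3K4me1 with vehicle was also highest at the midpoint. It covered 6.20% of the midpoints with S2101 and 25.9% with vehicle, and at 1 kb to the left 6.11% and 12.04%. With S2101 the cover was not highest at the midpoint: it was 5.28% at 300 bp to the left and 5.19% at 200 bp to the right, against 6.85% at 700 bp to the left and 7.13% at 500 bp to the right. With vehicle it was 18.4% at 300 bp and 15.7% at 700 bp to the left, and to the right it was nearly level at 19.5% at 300 bp and 19.8% at 500 bp before 17.1% at 700 bp. Shared H3K4me3 peaks with an S2101 score under 600, 1697 in number, were also most often covered by vehicle H3K4me1 at the centre, with 4.18% of midpoints covered with S2101 and 20.3% with vehicle. At least 50% of the H3K4me3 peak was covered by vehicle H3K4me1 in 25.6% of S2101-only peaks, in 18.9% of these weak shared peaks and in 5.57% of all 13117 shared peaks. With S2101 the same shares were 4.63%, 2.59% and 0.496%.

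**Figure D4:**
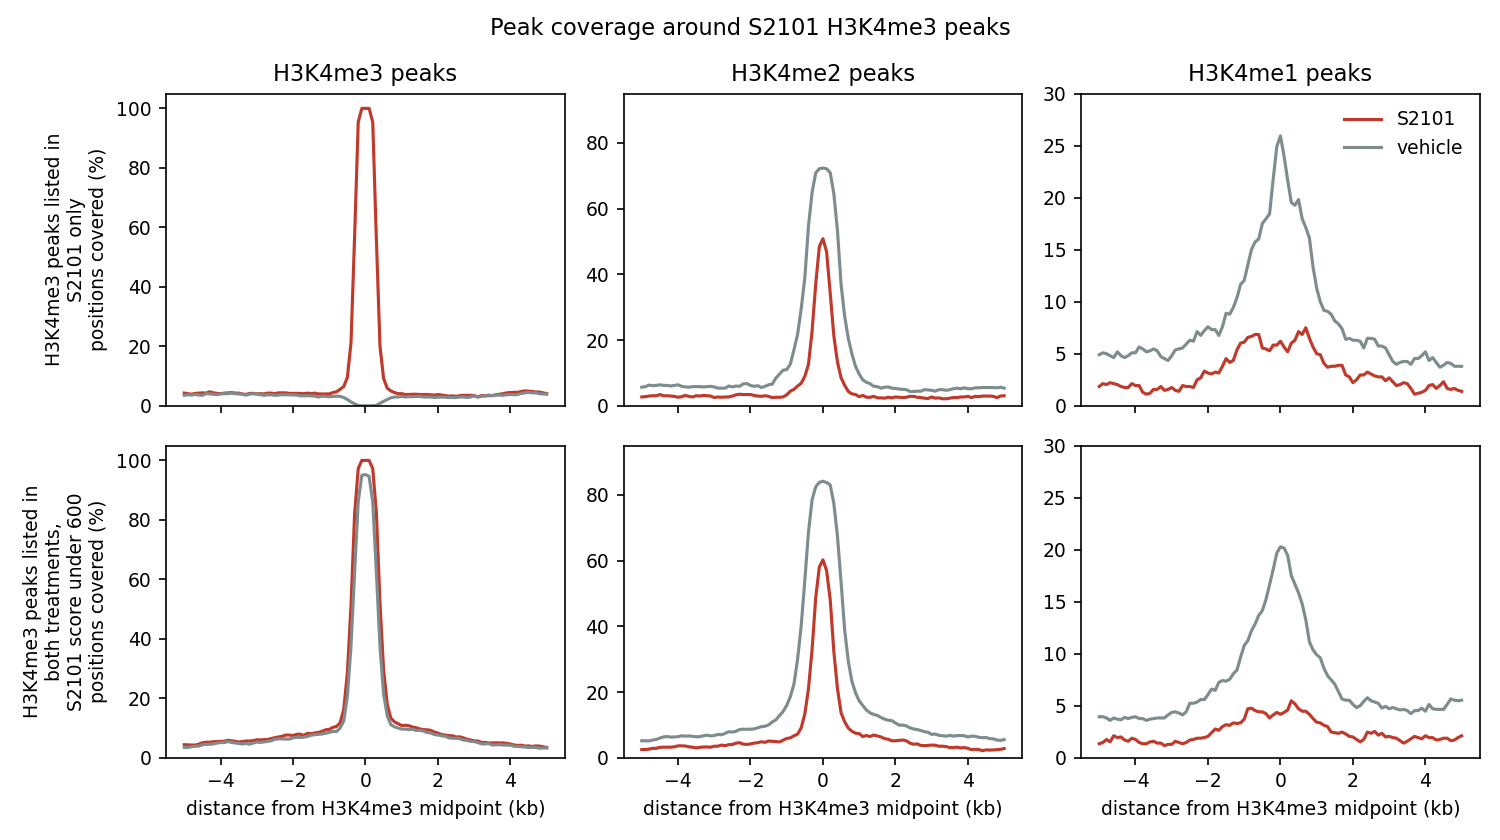
Percent of positions covered by peaks of each mark (y axes, 1 scale per column) by distance from the midpoint of S2101 H3K4me3 peaks in kb (x axis), for 1080 peaks in S2101-only regions (top) and 1697 peaks listed in both treatments with an S2101 score under 600 (bottom); red is S2101 and grey vehicle. H3K4me1 with vehicle is highest at the midpoint in both rows, 25.9% above and 20.3% below, and the absence of vehicle H3K4me3 at the centre of the first panel follows from how the regions were chosen.

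Most of the S2101-only H3K4me3 peaks, like most shared peaks, had no other S2101 H3K4me3 peak within 5 kb. The nearest vehicle H3K4me3 peak was 25393 bp away at the median (quartiles 6272 and 71462), and 230 of the 1080 peaks (21.3%, 18.96 to 23.8%) had one within 5 kb. Shared peaks overlap a vehicle peak by definition, so this distance has no counterpart in them. Another S2101 H3K4me3 peak lay within 5 kb in 24.5% of S2101-only peaks and in 20.2% of shared peaks. The median distance to it was 21772 bp and 24444 bp. The median distance to the nearest vehicle peak was 20378 bp with H3K4me1 and H3K4me2 present, 29774 bp with H3K4me2 alone and 30347 bp with neither mark. In the 19 regions with H3K4me1 and no H3K4me2 it was 5671 bp, and 8 of their 19 peaks (42.1%, 23.1 to 63.7%) lay within 5 kb of a vehicle H3K4me3 peak. A smaller number sat directly beside a vehicle peak, and 84 (7.78%) were within 1 kb.

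The S2101-only peaks closest to the limit of the rule were all on chromosome 5. The one at 109985516 to 109986465 (score 310.87) ended 4 bp from a vehicle peak, the one at 145877480 to 145878124 (score 134.59) 5 bp, and the one at 137546549 to 137547390 (score 246.18) 9 bp. Each also had another S2101 peak within 53 bp and no H3K4me1 or H3K4me2. Just outside the rule were S2101 peaks that overlapped a vehicle peak by 1 bp on chromosome 1 (164151322 to 164152409, score 194.01), by 9 bp on chromosome 6 (72737086 to 72737476, score 100.44) and by 16 bp on chromosome 5 (31118116 to 31119006, score 178.46). The lowest scores among the S2101-only regions were 100.11, 100.21 and 100.6.

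The region with the highest score stood apart from all others. It lay on chromosome 17 (39979847 to 39985866), and its H3K4me3 peak of 5967 bp had a score of 1064.77. H3K4me2 covered 5849 bp of it with S2101 (score 1910.41) and 6020 bp with vehicle (score 609.52), and H3K4me1 was absent from both lists. The peaks of both marks shared nearly the same borders, more than 3 times the width of the next widest S2101-only H3K4me3 peak, and the nearest vehicle H3K4me3 peak was 1028315 bp away. The sequence there was not examined. Leaving it out gave an H3K4me2 length ratio of 0.399 over the remaining 1071 regions.

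The next 9 regions by score held H3K4me2 in both treatments, and 5 of them held H3K4me1 with S2101. On chromosome 2 (25147476 to 25148600), H3K4me3 covered 1016 bp with S2101 (score 581.33). H3K4me2 covered 952 bp of the region with S2101 and 1032 bp with vehicle, and H3K4me1 245 bp and 431 bp. H3K4me2 thus had a like extent in both treatments where H3K4me3 was listed in S2101 only.

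On chromosome 3 (125640549 to 125642107) H3K4me3 covered 1384 bp (score 575.49) at a distance of 424170 bp from any vehicle H3K4me3 peak. H3K4me2 covered 1236 bp with S2101 and 1399 bp with vehicle, and H3K4me1 was listed with vehicle only, over 571 bp. A region on chromosome 15 (55137826 to 55139886) had the same states, with 1817 bp of H3K4me3 (score 530.8), 1316 bp of H3K4me2 with S2101 and 2005 bp with vehicle, and 716 bp of H3K4me1 with vehicle only. Both are regions where the S2101 H3K4me1 list held no peak and the vehicle list held one.

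The opposite H3K4me1 state was seen on chromosome 10 (80748001 to 80749420), where H3K4me3 covered 1270 bp (score 556.37) and H3K4me1 616 bp with S2101 and none with vehicle. H3K4me2 there covered 1162 bp with S2101 and 1269 bp with vehicle. The region on chromosome 4 (151512367 to 151513477, score 519.87) was alike, with 364 bp of H3K4me1 with S2101 and none with vehicle. It was near another S2101-only region, and its nearest other S2101 H3K4me3 peak was 6509 bp away while the nearest vehicle H3K4me3 peak was 37987 bp away.

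On chromosome 15 (98885570 to 98887049, score 501.1) the peaks of the other marks were longer with S2101, which was rare among these regions. H3K4me2 covered 1241 bp with S2101 and 1084 bp with vehicle, and H3K4me1 966 bp and 754 bp. On chromosome 3 (96379246 to 96381954, score 503.93) H3K4me2 covered 789 bp with S2101 and 1717 bp with vehicle, and H3K4me1 1300 bp and 1729 bp. The other regions lacked H3K4me1 in both lists, one on chromosome 7 (97574415 to 97575594, score 531.77), where H3K4me2 covered 364 bp with S2101 and 1030 bp with vehicle, and one on chromosome 1 (140432289 to 140433741, score 492.62), where it covered 837 bp and 1453 bp. By rank from 2 to 10, H3K4me2 scores with S2101 were 543, 828, 637, 188, 620, 355, 230, 1092 and 226. With vehicle they were 325, 501, 581, 117, 341, 344, 715, 330 and 353. The S2101 score was thus the lower one only in the regions of H3K4me3 score 503.93 and 492.62. Scores of the 2 lists need not be on a common scale.

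**Figure D5:**
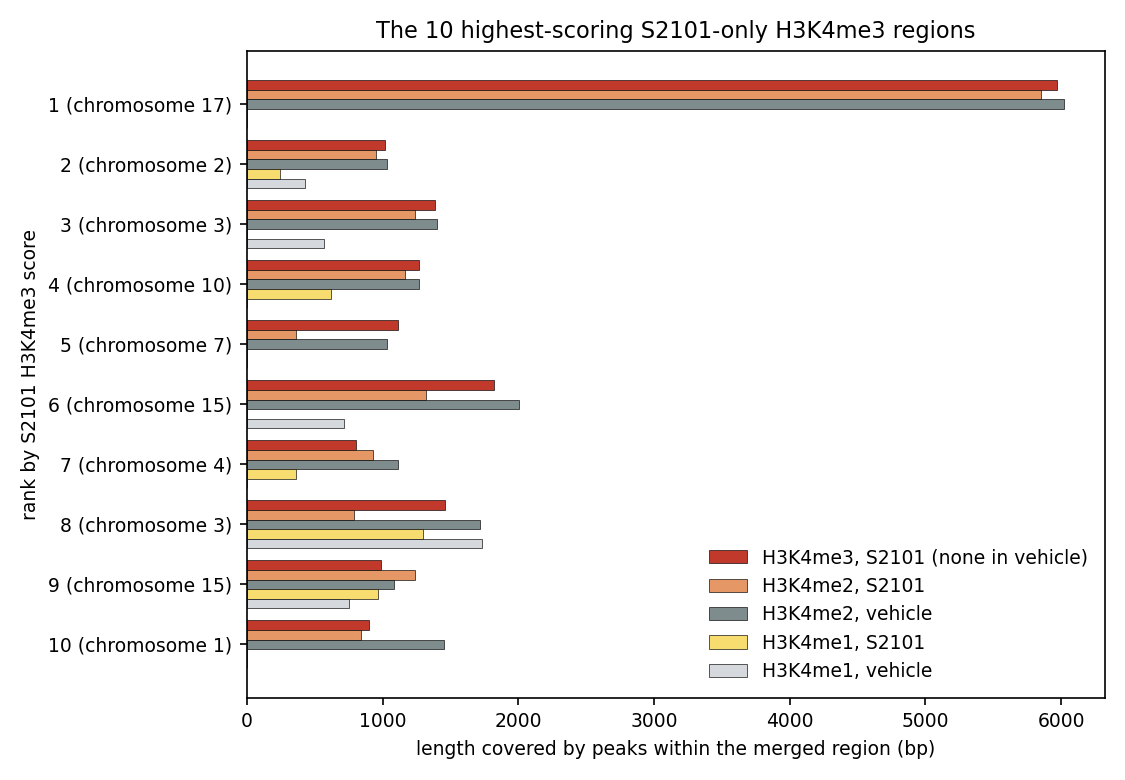
Length covered by peaks of each mark and treatment within the merged region (x axis, bp) for the 10 S2101-only H3K4me3 regions with the highest S2101 H3K4me3 score (y axis, rank and chromosome). All 10 have H3K4me2 in both treatments, and the first, on chromosome 17, is covered over 5967 bp by H3K4me3 with S2101, against 1817 bp or less in the others.

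The widest S2101-only H3K4me3 peaks after these all overlapped a longer vehicle H3K4me2 peak. One on chromosome 15 (31497954 to 31499662, 1709 bp, score 345.72) was covered by H3K4me1 over 1361 bp with S2101 and over its full length with vehicle. In the whole region H3K4me1 covered 2169 bp in 5 peaks with S2101 and 2763 bp in 2 peaks with vehicle, where the higher score was 1182.76. One on chromosome 6 (97171520 to 97173129, 1610 bp, score 442.9) was covered by H3K4me2 over 1040 bp with S2101 and over its full length with vehicle, where the H3K4me2 peak was 2279 bp long. One on chromosome 16 (42907035 to 42908636, 1602 bp, score 457.51) had no H3K4me1, and H3K4me2 covered 799 bp with S2101 and 1770 bp with vehicle.

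Among the 63 regions with H3K4me2 in S2101 only, the highest H3K4me3 score was 410.14, on chromosome 1 (172994571 to 172994892, 322 bp). H3K4me2 covered 213 bp of it with S2101 (score 527.83) and none with vehicle, and H3K4me1 was absent. Another region on chromosome 1 (75454682 to 75455405, score 354.77) held H3K4me2 with S2101 only, over 308 bp, and H3K4me1 with vehicle only, over 305 bp. On chromosome 11 (95381869 to 95383188, score 218.44) H3K4me2 was listed with S2101 only, over 1045 bp, beside H3K4me1 of 647 bp with S2101 and 501 bp with vehicle. On chromosome 5 (141225226 to 141225750, score 146.64) all 3 marks were listed with S2101 only, H3K4me2 over 413 bp and H3K4me1 over 271 bp, and it was the only such region among the 1072. In these 63 regions the S2101 H3K4me2 peaks were short and weak, with a median of 390 bp and a median score of 152.

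Among the 227 regions with H3K4me2 in vehicle only, the highest score was 381.82, on chromosome 1 (191037469 to 191039662). H3K4me3 covered 963 bp of it with S2101, H3K4me2 1767 bp with vehicle only (score 632.75), and H3K4me1 1094 bp with vehicle only. The highest without H3K4me1 was on chromosome 3 (92817956 to 92819029, score 372.93), where H3K4me2 covered 979 bp with vehicle only. On chromosome 2 (32479950 to 32482726, score 316.34) H3K4me2 covered 1631 bp with vehicle only, while H3K4me1 covered 364 bp with S2101 and 1981 bp with vehicle. In these 3 regions the lack of S2101 H3K4me2 follows from their class, and S2101 H3K4me1 was shorter than vehicle H3K4me1 or absent. The opposite was seen on chromosome 2 (90344901 to 90345793, score 164.23), with 349 bp of H3K4me1 with S2101 and none with vehicle. H3K4me2 there covered 836 bp with vehicle only. Of the 227 regions, 3 had H3K4me1 in S2101 only and 54 in vehicle only.

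Of the 199 regions with no H3K4me1 or H3K4me2, the highest score was 417.45, on chromosome 3 (19163728 to 19165107, 1380 bp). Of the 19 with H3K4me1 and no H3K4me2, 3 had the H3K4me1 peak in S2101 only and 16 in vehicle only. Scores reached 250.9 on chromosome 7 (3168142 to 3169273, 268 bp of H3K4me1 with S2101) and 292.21 on chromosome 2 (167750316 to 167751259, 481 bp of H3K4me1 with vehicle). None of the 19 had H3K4me1 in both treatments.

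S2101-only regions were spread over all chromosomes. They made up 7.67 ± 1.02 per 100 H3K4me3 regions (mean and SD over 19 autosomes), from 5.86 on chromosome 9 (44 of 751) to 10.3 on chromosome 15 (63 of 613), and 7.92 on chromosome X (35 of 442). On each of the 19 autosomes they outnumbered the vehicle-only regions. Their H3K4me1 varied more widely along the genome. On chromosome 15, H3K4me1 was found in 44.4% of S2101-only regions with S2101 and 69.8% with vehicle, and on chromosome 7 in 8.57% and 15.7%. The shared regions of these chromosomes had the same order, with 35.7% with S2101 and 70.3% with vehicle on chromosome 15, and 6.42% and 20.2% on chromosome 7. On chromosome X none of the 35 regions held H3K4me1 in either treatment, which allows a share of up to 8.57%, and 17.1% held H3K4me2 with S2101 and 34.3% with vehicle. In the 403 shared regions of chromosome X, H3K4me1 was found in 2 with S2101 and 8 with vehicle, and H3K4me2 in 40.2% and 84.4%. The H3K4me1 lists held 21 peaks with S2101 and 77 with vehicle on all of chromosome X.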

How the data were processed

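Each of 6 samples has a list of peaks, 1 library per mark and treatment. Per the file headers, the authors called peaks per library with MACS in Galaxy, and the deposited score is the caller's value for each peak. The build was mm9 and the tools named are Bowtie2 and deepTools, per the submitters' processing notes. Read counts, the MACS version, its settings, its input and duplicate handling are not given in the sources used. Depth is therefore unknown, and a deeper or better enriched library can list more weak peaks.

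Members, lists of regions and summaries were chosen with earlier results of these data known. Peaks of all lists were merged at an overlap of 1 bp. Covered lengths are bases within the merged region. Score classes include their lower bound. Named regions are the 10 highest-scoring, the 5 widest, the highest-scoring of each combination of H3K4me1 and H3K4me2 states, and those closest to the rule's limit on both sides. The weighting by score, the score pairs, the omission of the chromosome 17 region and the shares over all 1207 peaks were added after the data had been seen. No test was made, since there is 1 library per group; intervals are 95% Wilson intervals for counting error. The counting SEs are binomial. Interval functions were tested on simulated lists against bedtools 2.31.1. Planned gene lists, annotation and sequence features need an mm9 reference and were not used here. Intervals came from scipy 1.17.1, summaries from pandas 2.3.3 and numpy 2.4.6, and figures from matplotlib 3.10.9, all under Python 3.11.15.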

Additional observations from a re-analysis of the deposited data

How the results depend on the processing

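The count of 1072 S2101-only regions stayed within 1.5 times (988 to 1207) under several alternatives. These were an overlap of at least 50%, a distance of 1 kb, regions from the H3K4me3 lists alone, and autosomes with X only. With scores of 200 or more in both lists the count was 787. A vehicle peak under 200 then counts as absent, so the 787 regions are not a subset of the 1072. The count was 312 with S2101 scores of 200 or more against the full vehicle list, and 593 with lists of equal length. Both of these settings remove low-scoring S2101 peaks. The shares with other marks depended on the overlap rule. H3K4me2 with S2101 was found in 45.8% when at least 50% of the H3K4me3 peak had to be covered, 61.6% within 1 kb, 29.0% at H3K4me2 scores of 200 or more, and 65.7% in the 312 regions with H3K4me3 scores of 200 or more. H3K4me2 with vehicle was 77.3% within 1 kb and 51.3% at scores of 200 or more. H3K4me1 with S2101 was 14.3% on the H3K4me3 peak alone, 4.63% with at least 50% covered, 28.3% within 1 kb and 8.40% at scores of 200 or more. H3K4me1 with vehicle was 36.3%, 25.6%, 46.3% and 24.3% in the same order. In every one of these settings the vehicle share was above the S2101 share for both marks. The H3K4me2 length ratio was 0.568 within the H3K4me3 peaks. The share of peaks near a vehicle H3K4me3 peak was 11.6% within 2 kb and 31.5% within 10 kb. Over all 1207 S2101 H3K4me3 peaks without overlap with a vehicle peak, an alternative added after the data had been seen, H3K4me2 with vehicle was 76.5%, H3K4me1 with S2101 15.0% and H3K4me1 with vehicle 37.8%. Leaving out the chromosome 17 region, an alternative added after the data had been seen, moved no share by more than its interval. No paired analysis was possible because each mark and treatment has 1 library. Depth is unknown, so a peak missing from a list cannot be told from one not detectable at its depth.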

Other observations

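S2101-only H3K4me3 regions that lay close to one another were few. Groups of 2 or more with gaps under 10 kb numbered 23 and held 48 of the 1072 regions (4.48%). The largest groups had 3 regions each. One was on chromosome 13 (23842726 to 23849646, 6921 bp, highest score 171.65). The other was on unplaced sequence, where 5 of 26 H3K4me3 regions were S2101-only. A pair on chromosome 4 (151504921 to 151513477) included the region with score 519.87, and a pair on chromosome 7 (150645036 to 150647013) reached a score of 392.96.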
